A study of Bos taurus with 8 samples.

Results

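The HOX genes measured here were the 39 rows of the deposited gene table whose symbol is HOXA, HOXB, HOXC or HOXD followed only by digits, out of 21880 genes. The rule reads the symbol and no measured value. The cells came from the semitendinosus, a hindlimb muscle, of 10 Belgian Blue cattle (the donors), 5 calves and 5 adults, of which 3 animals were male. Single-cell libraries were made from freshly digested muscle (Muscle, 10 animals), from cells held for 72 h in serum-free growth medium (P0, 9 animals), and from proliferating cultures at passages 2, 5 and 8 (P2, P5 and P8, the same 9 animals). From P2 on, 3 animals were represented by cultures sorted for satellite cells (SCs), 3 by cultures sorted for fibro-adipogenic progenitors (FAPs) and 3 by unsorted cultures. All animals were of 1 breed, known for its heavy muscling, and the libraries of cultured cells shared 1 serum-free growth medium. In each library the cells of all animals were pooled and were later assigned to their animal by genotype.

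HOX genes encode homeodomain transcription factors that lie in 4 chromosomal clusters, HOXA to HOXD. Within a cluster the low-numbered genes are used towards the head of the embryo and the high-numbered genes towards the tail and, in HOXA and HOXD, towards the far end of the limb. Connective tissue, muscle and vessel cells of the adult keep part of this pattern, and the set of HOX genes that a cell transcribes is widely used as a record of the body position from which it came. PBX and MEIS proteins bind DNA together with HOX proteins, Polycomb complexes keep unused HOX genes silent, Trithorax complexes keep used ones active, and retinoic acid induces HOX genes in the embryo. SCs are the stem cells of the muscle fibre, FAPs are the connective tissue cells between fibres, vascular and lymphatic endothelial cells (VECs and LECs) line blood and lymph vessels, and smooth muscle and mesenchymal cells (SMMCs) surround the vessels.

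Levels are given as UMIs (tagged transcript 3′ ends) per 1000000 UMIs of all genes (CPM), after the UMIs of all cells of 1 animal, cell type and library had been summed. These sums held between 42591 UMIs in lymphocytes of Muscle and 3.18e+07 UMIs in SCs of P2. A group of fewer than 10 cells was left out. The 5-gene marker lists checked the deposited cell types. In Muscle, the FAP list (PDGFRA, DCN, LUM, COL1A1 and COL3A1) summed to between 28146 and 44574 CPM in FAPs and to between 426 and 1951 CPM in SCs. At P0 the gap was narrower, with 4510 to 8011 CPM in FAPs, 1842 to 2918 CPM in SCs and 1527 to 2816 CPM in SMMCs. The SC list (PAX7, MYF5, MYOD1, CHRDL2 and DES) summed to between 63.7 and 258 CPM in SCs at P0, to between 112 and 426 CPM in SMMCs, where MYOD1 was at 0, and to between 8.37 and 16.8 CPM in FAPs. The labels record P0, P2 and P5 as 2 runs each, but only 1 matrix per time was used here, in which the runs appear to be merged, and it was treated as 1 library. Time and library cannot be told apart. Between 4 and 29 barcodes of kept cells occurred in both members of a pair of libraries, of which at most 4 belonged to the same animal.

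Of the 39 genes, 35 had at least 1 UMI among 764765867 UMIs of 36129 cells. HOXB1, HOXB13, HOXD12 and HOXD13 had none, which allows a level of up to 0.00392 CPM over all cells. The HOX genes together had 139824 UMIs. The 9 HOXC genes held 55.0% of these UMIs and the 11 HOXA genes held 36.0%. The 9 HOXD genes held 5.03%, and the 10 HOXB genes held 3.96%. HOXC6 (34206 UMIs), HOXA9 (23262 UMIs), HOXC9 (16513 UMIs) and HOXC8 (12746 UMIs) were counted most often over all libraries, a rank that the cultures set, since Muscle held 20977722 of all UMIs. In FAPs of Muscle, HOXC6, HOXC9, HOXA9 and HOXC4 had the highest means. Genes of paralogue groups 11 to 13, which pattern the far limb and the tail, were almost absent in Muscle, at 4.78 ± 3.07 CPM in sum (SD, n = 10) in FAPs and 3.71 ± 4.29 CPM in SCs. Counts were not divided by gene length, since each UMI marks 1 transcript end.

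In fresh muscle, every resident tissue type with large enough sums transcribed HOX genes, and blood-derived cells had few. The summed HOX level was 453 ± 73.6 CPM in FAPs, 503.9 ± 107 CPM in SCs, 417 ± 72.3 CPM in VECs and 257 ± 59.5 CPM in SMMCs (SD, n = 10 each). In 4 animals with enough LECs it was 526 ± 142 CPM. Tenocytes, glial cells and myocytes had no sum of at least 10 cells. Over all their 23, 12 and 45 cells the HOX level was 705, 499.5 and 355 CPM. Macrophages had 17.0 ± 11 CPM and lymphocytes 27.3 ± 15.7 CPM (n = 10 each). The single neutrophil sum that was large enough had 159 CPM, beside a summed FAP marker level of 7919 CPM in the same cells; the part of FAP RNA in it was not tested.

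The cell types differed in which cluster they used. HOXC genes held 56.1% of the HOX UMIs in FAPs, 54.2% in SMMCs and 32.7% in SCs, but 2.07% in VECs. HOXA genes held 55.6% in SCs, 37.3% in FAPs and 42.8% in VECs. HOXB genes held 49.5% in VECs, against 4.08% in FAPs and 3.79% in SCs. HOXD genes held 17.4% in LECs, 9.28% in SMMCs, 7.96% in SCs, 5.63% in VECs and 2.59% in FAPs. In summed levels, VECs had 206 ± 48.9 CPM of HOXB and 9.65 ± 6.02 CPM of HOXC, whereas FAPs had 13.4 ± 9.48 CPM of HOXB and 261 ± 42.1 CPM of HOXC (SD, n = 10). At P0 the HOXC share was 52.4% in FAPs, 40.5% in SCs and 4.15% in VECs, and the HOXB share was 45.3% in VECs.

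**Figure D1:**
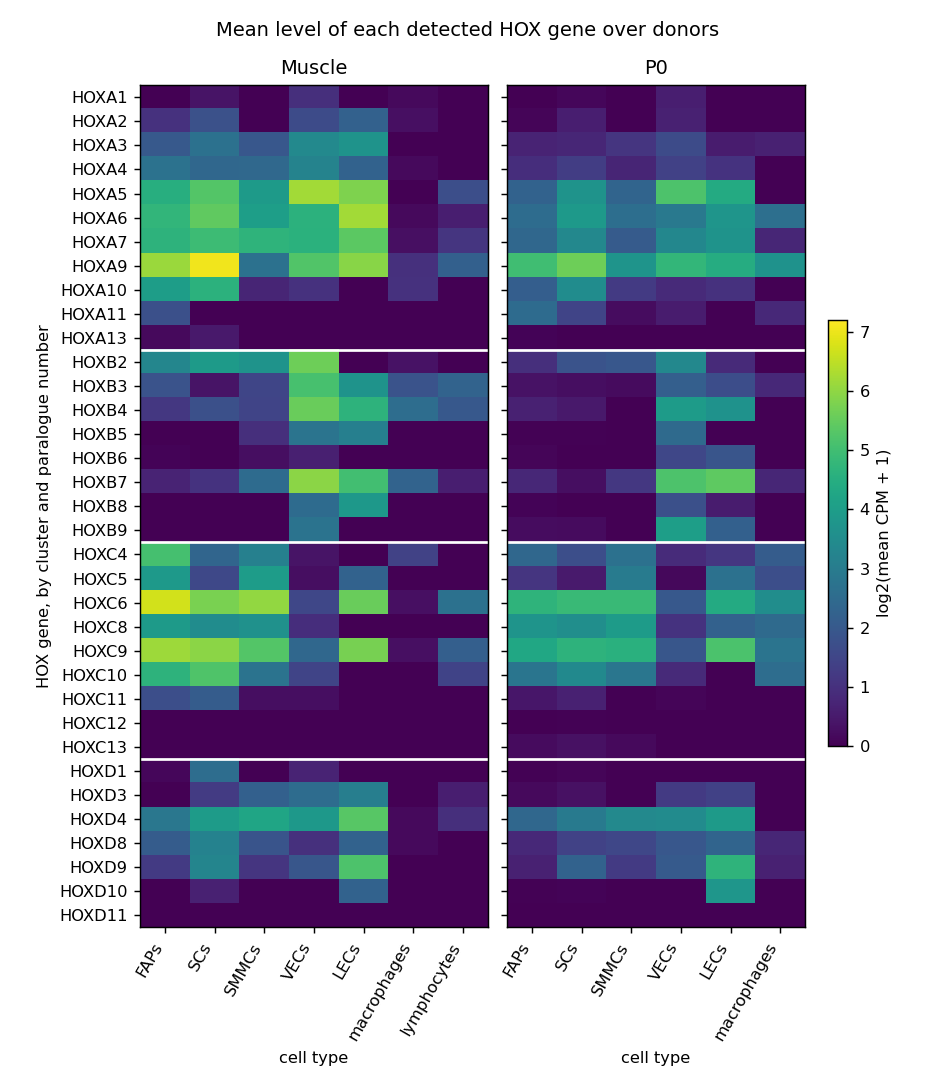
Mean level (CPM, log scale) of each detected HOX gene (rows, by cluster) in each cell type and library (columns) over the animals with at least 10 cells. HOXC6 and HOXA9 were high in FAPs and SCs, while HOXB genes were high in vascular endothelial cells, where HOXC genes held 2.07% of the HOX UMIs of fresh muscle.

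SCs were compared with FAPs of the same animals to ask whether these neighbours in one muscle carry the same HOX pattern. In Muscle, HOXC6 had lower and HOXA9 higher levels in SCs than in FAPs in each of 10 animals. HOXC6, a gene of the trunk region, ranged from 68.6 to 141 CPM in FAPs (median 109 CPM) and from 29.2 to 91.7 CPM in SCs (median 44.2 CPM). The 2 ranges overlapped, and the log2 fold change was −1.08 ± 0.19 (SE; edgeR quasi-likelihood test, adjusted p = 2.55e-05). HOXA9, which acts in the lumbar region and the near end of the limb, ranged from 26.7 to 95.5 CPM in FAPs (median 67.2 CPM) and from 102 to 205 CPM in SCs (median 129 CPM). These ranges did not overlap, and the difference (log2 fold change 0.85 ± 0.18, adjusted p = 0.000202) stayed below the 2-fold size asked of a call.

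Genes with a change of over 2-fold in either direction (over 1 on the log2 scale) and an adjusted p under 0.05 count as called. By this rule 1 of 3 HOX genes tested in Muscle was called between SCs and FAPs, where 19.9% of all genes tested were called (6.54% higher and 13.4% lower in SCs). The other 36 genes were not tested because of low counts, and a gene that passed this filter through the group where it is high had to differ, so that counts of called genes carry no more than their values. HOXC4, which was not tested here, had 32.7 ± 12.4 CPM in FAPs and 4.13 ± 3.70 CPM in SCs (10 UMIs in 10 animals). HOXC5 had 14 ± 2.71 CPM in FAPs and 1.97 ± 3.03 CPM in SCs (6 UMIs). HOXC9 had 69.3 ± 21.3 CPM in FAPs and 60.4 ± 22.9 CPM in SCs.

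At P0, with deeper sums, 8 of 16 HOX genes tested were called between SCs and FAPs, where 10.7% of all genes were called (5.98% higher and 4.69% lower). Of the HOX genes, 7 were higher in SCs and 1 was lower. HOXA genes of the middle of the cluster were higher in SCs in 9 of 9 animals. HOXA10, a regulator of the lumbar spine and the near end of the limb, ranged from 2.56 to 4.76 CPM in FAPs (median 3.20 CPM) and from 7.61 to 14.7 CPM in SCs (median 10.3 CPM), without overlap (1.60 ± 0.13, adjusted p = 3.07e-09). HOXA6 ranged from 3.90 to 6.97 CPM in FAPs (median 4.74 CPM) and from 11.3 to 19.1 CPM in SCs (median 13.3 CPM), again without overlap (1.52 ± 0.13, adjusted p = 3.52e-09). HOXA5, known from lung and neck development, had log2 fold changes of 1.65 ± 0.18 (adjusted p = 1.34e-07), and HOXA7 of 1.09 ± 0.12 (adjusted p = 2.7e-07).

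HOXD9, a partner of HOXA9 in limb patterning, showed the largest fold among the genes called at P0, with 0.0867 to 1.05 CPM in FAPs (median 0.643 CPM) and 1.09 to 5.16 CPM in SCs (median 4.25 CPM). The groups did not overlap (2.75 ± 0.29, adjusted p = 1.29e-07). The smallest SC sum at P0 held 920291 UMIs, in which a lone UMI gives 1.09 CPM, so that this gap rests on few UMIs. HOXD8 (1.05 ± 0.23, adjusted p = 0.000822) and HOXB2, which acts in the hindbrain (1.17 ± 0.41, adjusted p = 0.0228), were also higher in SCs. HOXA9 kept its direction, with 30.8 ± 2.18 CPM in FAPs and 48.0 ± 5.76 CPM in SCs (0.64 ± 0.06, adjusted p = 1.91e-08). HOXC6 had 24.8 ± 3.16 CPM in FAPs and 28.4 ± 3.34 CPM in SCs (0.20, adjusted p = 0.075). HOXC4 was lower in SCs by less than the fold of a call, with 4.31 ± 0.499 CPM in FAPs and 2.29 ± 0.663 CPM in SCs (−0.94 ± 0.15, adjusted p = 3.58e-05).

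HOXA11, which patterns the forearm and shank, was the gene lower in SCs at P0. It ranged from 3.20 to 8.42 CPM in FAPs (median 4.25 CPM) and from 0 to 2.88 CPM in SCs (median 1.91 CPM), without overlap (−1.29 ± 0.28, adjusted p = 0.000632). In Muscle, no UMI of HOXA11 was found in SCs, and 21 UMIs were found in FAPs of 5 animals. SCs carried FAP markers at P0 at the levels given above, and what part this had in the sizes of these differences was not tested.

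SCs and FAPs were compared again in passaged cells, with sums from all kinds of culture. SCs came mostly from the SC-sorted animals 5, 6 and 10 (1125, 1085 and 1089 cells at P2), and FAPs mostly from the others. Vessels were coated with laminin for SC-sorted, collagen I for FAP-sorted and fibronectin for unsorted cells. The part of sorting and coating in the differences was not tested. Small sums at P2 held 19 and 12 FAPs (animals 5 and 10) and 18 SCs (animal 8). At P2, 10 of 19 genes tested were called, 9 higher and 1 lower in SCs (14% of all genes called, 6.86% higher and 7.13% lower), and at P5 8 of 18, 6 higher and 2 lower (16.3% of all genes called, 7.39% higher and 8.89% lower). HOXD9 ranged from 0 to 0.343 CPM in FAPs and from 2.03 to 5.88 CPM in SCs at P2 (3.90 ± 0.32, adjusted p = 5.94e-08), and from 0 to 0.679 CPM in FAPs and from 2.72 to 7.09 CPM in SCs at P5 (3.79 ± 0.42, adjusted p = 1.93e-06). The groups were apart at both passages. The value of 7.09 CPM was 1 UMI in 10 SCs of animal 4, and the SCs of the other animals reached 5.46 CPM at P5. HOXA6, HOXA10, HOXA5 and HOXA7 were called in the same direction as at P0 at both passages, with log2 fold changes between 1.2 and 1.95. HOXA3, a gene of the throat region, was called at both passages (1.73 ± 0.34 and 2.21 ± 0.36), though at means of at most 1.84 CPM. HOXD8, HOXB2 and HOXA4 were called at P2 and not at P5, and whether their difference changed between the passages was not tested.

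Genes at the start of the HOXC cluster went the other way. HOXC5 had 2.56 ± 1.38 CPM in FAPs and 0.814 ± 0.868 CPM in SCs at P2 (−2.45 ± 0.34, adjusted p = 2.24e-05), and 3.95 ± 1.27 CPM in FAPs and 0.764 ± 0.679 CPM in SCs at P5 (−2.38 ± 0.35, adjusted p = 3.54e-05). The ranges overlapped at P2 and not at P5. HOXC4 was called at P5 (−1.34 ± 0.26, adjusted p = 0.000614), with 9.99 ± 3.48 CPM in FAPs and 4.68 ± 1.36 CPM in SCs. The FAP marker list overlapped between the types at both passages, with 3289 to 10790 CPM in SCs and 6450 to 38758 CPM in FAPs at P2, and 5304 to 11170 CPM in SCs and 8239 to 56446 CPM in FAPs at P5. The list of muscle fibre markers (myocytes) summed to between 17.6 and 1827 CPM in SCs and between 10.7 and 18.5 CPM in FAPs at P2, and to between 28.4 and 4949 CPM in SCs and 24.2 and 42.9 CPM in FAPs at P5. The part of either list in these differences was not tested.

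**Figure D2:**
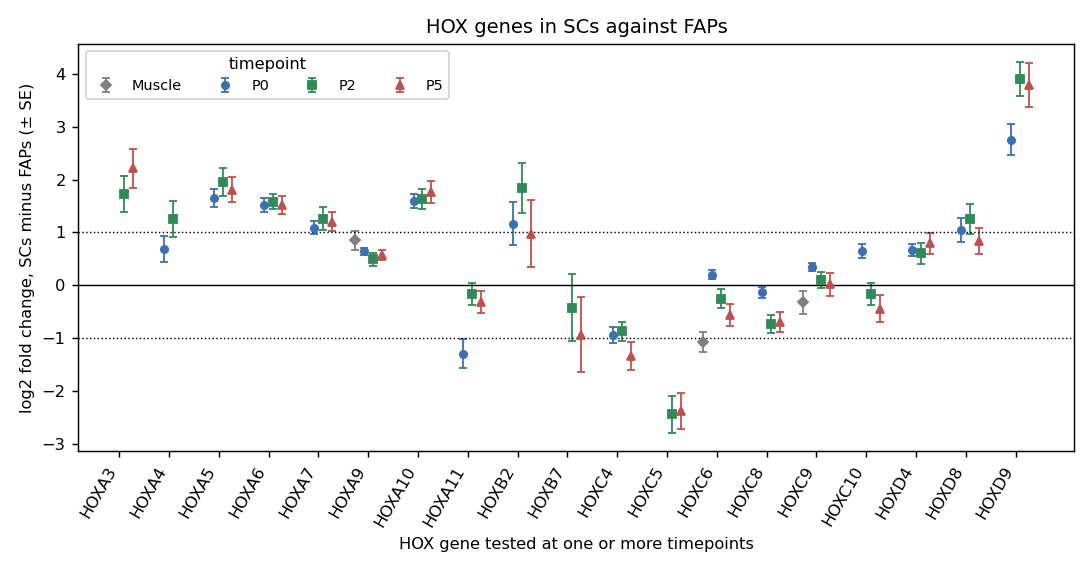
Log2 fold change of SCs minus FAPs (points, with SE bars) for the HOX genes tested in Muscle and at P0, P2 and P5. HOXD9 and the HOXA genes from HOXA3 to HOXA10 lie above 0 at the passages, while HOXC5 and HOXC4 lie below 0.

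VECs differed from FAPs by cluster, with HOXB genes higher and HOXC genes lower. In Muscle, 5 of 8 genes tested were called, 3 higher and 2 lower in VECs (27.2% of all genes called, 14.2% higher and 13.1% lower). HOXB7, which is known to promote vessel growth, ranged from 33.2 to 79.1 CPM in VECs (median 60.7 CPM) and from 0 to 3.18 CPM in FAPs, where 6 UMIs were found in 3 animals. The groups did not overlap (5.95 ± 0.33, adjusted p = 6.67e-15). HOXC6 went the opposite way, from 0 to 6.03 CPM in VECs (7 UMIs), far below its range in FAPs (−5.74 ± 0.32, adjusted p = 7.29e-15). HOXC9, another gene of the thoracic and lumbar region, had 4.31 ± 5.11 CPM in VECs against 69.3 ± 21.3 CPM in FAPs (−4.17 ± 0.34, adjusted p = 1.76e-11).

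HOXA5, which is known as a brake on vessel sprouting, ranged from 37.6 to 105 CPM in VECs (median 74.6 CPM) and from 8.21 to 37.0 CPM in FAPs (median 21.2 CPM), without overlap (1.82 ± 0.19, adjusted p = 1.8e-09). HOXB2 had 48.2 ± 14.3 CPM in VECs and 8.91 ± 6.32 CPM in FAPs (2.18 ± 0.31, adjusted p = 8.81e-07). HOXB4, known for its action in blood stem cells, had 46.1 ± 15.1 CPM in VECs and 1.23 ± 1.85 CPM in FAPs, and HOXB3 had 33.7 ± 18.8 CPM in VECs and 2.57 ± 2.54 CPM in FAPs. Neither of these HOXB genes was tested in Muscle because of low counts. HOXB9 had 20 UMIs in VECs, spread over 10 of 10 animals, and none in FAPs, a level at least 12.6-fold higher when FAPs are set to 3 UMIs over all animals.

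At P0, 14 of 16 genes tested were called between VECs and FAPs, 7 in each direction (27.4% of all genes called, 13.9% higher and 13.4% lower). HOXB7 ranged from 25.2 to 52.3 CPM in VECs (median 33.5 CPM) and from 0.520 to 1.10 CPM in FAPs (5.66 ± 0.16, adjusted p = 1.11e-19). HOXB9 ranged from 10.8 to 19.1 CPM in VECs and from 0 to 0.482 CPM in FAPs (6.29 ± 0.25, adjusted p = 1.11e-16). HOXA5 had 35.4 ± 8.62 CPM in VECs and 3.83 ± 0.506 CPM in FAPs (3.26 ± 0.13, adjusted p = 1.02e-16). For these 3 genes VECs and FAPs did not overlap, and neither did they for HOXB4 (4.63 ± 0.31) and HOXB2 (3.35 ± 0.34). HOXD4 (1.29 ± 0.17) and HOXA7 (1.06 ± 0.18) were higher in VECs with overlapping ranges, and HOXA7 fell just under the fold of a call with DESeq2 (0.996).

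The genes lower in VECs at P0 were those of HOXC together with HOXA10 and HOXA11. HOXC9 had 2.77 ± 0.856 CPM in VECs and 18.6 ± 1.69 CPM in FAPs (−2.72 ± 0.15, adjusted p = 9.49e-14). HOXC8, which patterns the chest wall and its nerves, had 1.06 ± 1.08 CPM in VECs and 12.3 ± 1.31 CPM in FAPs (−3.59 ± 0.24, adjusted p = 3.52e-12). HOXC6 (−3.01 ± 0.23), HOXC4 (−3.02 ± 0.36) and HOXC10 (−2.66 ± 0.35) were lower as well, and so were HOXA11 (−3.18 ± 0.50) and HOXA10 (−2.0 ± 0.39). The FAP marker list summed to between 412 and 792 CPM in VECs at P0, and the part of FAP RNA in the remaining HOXC counts was not tested.

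**Figure D3:**
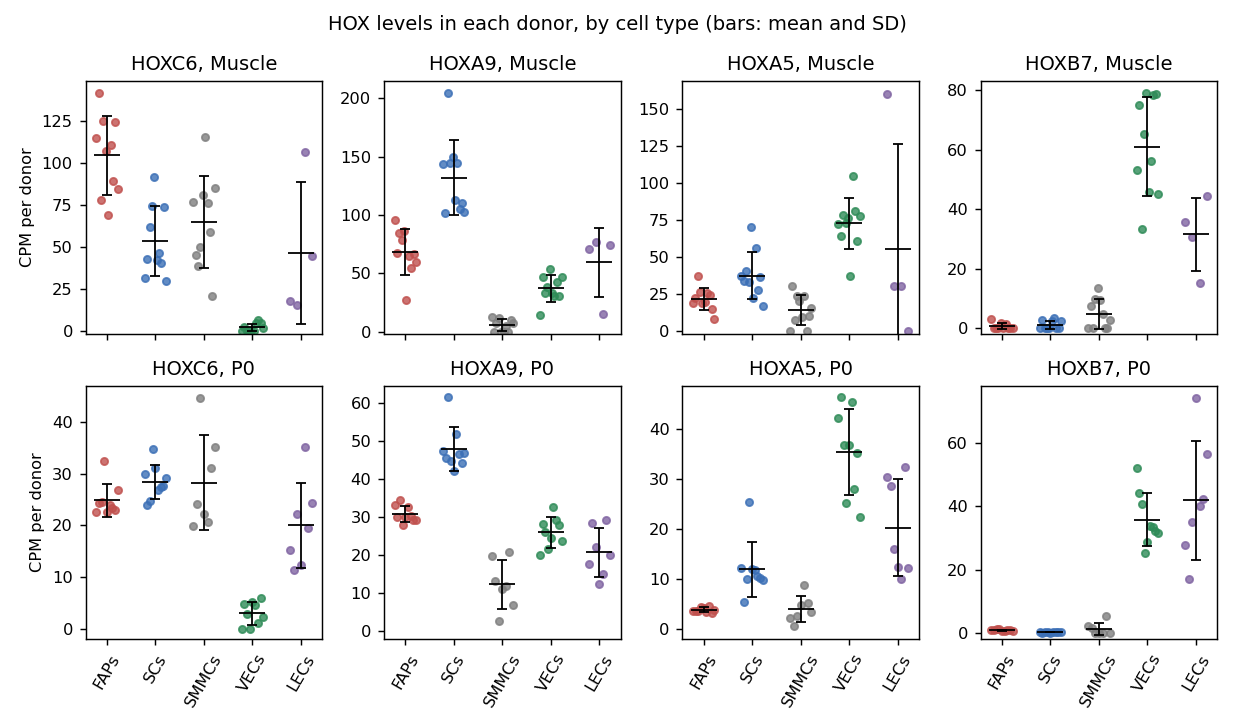
Levels (CPM) of HOXC6, HOXA9, HOXA5 and HOXB7 in FAPs, SCs, SMMCs, VECs and LECs of Muscle and P0. Each point is 1 animal, and bars give mean ± SD. HOXB7 stood at 33.2 to 79.1 CPM in VECs of Muscle and at 0 to 3.18 CPM in FAPs, while HOXC6 showed the opposite order.

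HOXB7, HOXA5, HOXB4, HOXD4 and HOXA7 were called higher than in FAPs both in LECs and in VECs of P0. At P0, 12 of 18 genes tested were called against FAPs, 9 higher and 3 lower (22% of all genes called, 10.1% higher and 11.9% lower). HOXB7 ranged from 17.1 to 74.4 CPM in LECs (5.62 ± 0.29, adjusted p = 1.75e-14), without overlap with FAPs. HOXD9 ranged from 12.4 to 38.0 CPM in LECs (median 22.8 CPM) and had 0.595 ± 0.345 CPM in FAPs (5.39 ± 0.44, adjusted p = 2.18e-10). In VECs, where it was not tested because of low counts, it had 3.10 ± 1.65 CPM. HOXC9 was at 34.5 ± 17.1 CPM in LECs (SD, n = 7), 18.6 ± 1.69 CPM in FAPs and 2.77 ± 0.856 CPM in VECs.

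HOXA5 (2.43 ± 0.28), HOXB4 (4.24 ± 0.60), HOXD4 (1.74 ± 0.29), HOXA7 (1.38 ± 0.31), HOXC5 (2.09 ± 0.58) and HOXD8 (2.22 ± 0.64) were higher in LECs than in FAPs at P0, and HOXC8 was lower (−1.88 ± 0.47). HOXC10 and HOXA11, of the lumbar and far limb regions, had no UMI in LECs of 7 animals, so that FAPs were at least 3.51-fold and 2.74-fold higher when LECs are set to 3 UMIs over all animals. HOXD10, named here after its values were seen, had 21 UMIs in LECs of 6 animals at P0 (12.8 ± 11.8 CPM) and 3 UMIs in FAPs.

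In LECs of Muscle, 5 of 9 genes tested were called, 2 higher and 3 lower (22.5% of all genes called, 8.85% higher and 13.6% lower), on sums of 56121 to 67317 UMIs in 4 animals. HOXD4, an early gene of the neck region, had 29.7, 30.7, 35.6 and 60.7 CPM in LECs, all above the highest FAP value of 10.5 CPM (2.41 ± 0.53, adjusted p = 0.00121). In LECs of animals 7 and 8, 1 UMI was 15.4 and 15.2 CPM, already above that FAP value, so that the separation rests on few UMIs. HOXA6 had 45.5 to 107 CPM in LECs, also on few UMIs, and 17.8 to 40.7 CPM in FAPs (1.40 ± 0.38, adjusted p = 0.00757). HOXC4 and HOXC10 had no UMI in LECs, and FAPs were at least 2.25-fold and 2.19-fold higher at the same floor.

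HOXC6 had 15.4, 17.8, 44.6 and 106 CPM in LECs of Muscle, which overlapped the FAPs (−1.24 ± 0.41, adjusted p = 0.0263). The lowest of these values was 1 UMI. With the animal as a block, HOXC6 was not called (adjusted p = 0.0566) and HOXA6 was the 1 gene called of 4 tested. The HOXC6 call was also lost without animal 4 (adjusted p = 0.103), animal 7 (0.135) or animal 10 (0.0595), and that of HOXA6 without animal 4 (0.0839) or animal 10 (0.0703). The count of called genes fell to 3 without animal 2, 4, 5 or 6. Without animal 10 it was 4, since HOXA5 was then called (1.47, adjusted p = 0.0378), and without animal 7 it was 5, since HOXD9 then passed the filter and was called (4.71, adjusted p = 0.000313).

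SMMCs and FAPs, both mesenchymal, were compared next. In Muscle, 0 of 2 genes tested were called (23.3% of all genes called, 9.94% higher and 13.3% lower). Both had an adjusted p below 0.05, with HOXC9 at −0.95 ± 0.23 (0.000874) and HOXC6 at −0.80 ± 0.19 (0.000985), and DESeq2, which tested 28 HOX genes, called 8. At P0, 4 of 16 genes were called, 1 higher and 3 lower (11.3% of all genes called, 6.45% higher and 4.81% lower). HOXA9 ranged from 2.63 to 20.8 CPM in SMMCs and from 28.0 to 34.6 CPM in FAPs (−1.51 ± 0.17, adjusted p = 3.54e-07). HOXA10 (−1.91 ± 0.54) and HOXA11 (−3.68 ± 0.72, 2 UMIs in SMMCs) were lower too. HOXC5 was higher in SMMCs, at 6.96 ± 4.82 CPM against 1.17 ± 0.204 CPM in FAPs (2.39 ± 0.31, adjusted p = 2.49e-06).

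Macrophages and lymphocytes gave the level of cells in which few HOX UMIs were counted. HOXC6 and HOXC9 had 1 UMI each in macrophages of 10 animals of Muscle, against 785 and 481 UMIs in FAPs, and both were called lower (2 of 2 tested, where 33.2% of all genes were called, 15.1% higher and 18.1% lower). In lymphocytes HOXC6 had 7 UMIs and was called lower (1 of 1 tested, −3.53 ± 0.43, where 38.1% of all genes were called, 13.5% higher and 24.6% lower). At P0, macrophages had 53.3 ± 23.9 CPM of HOX genes (SD, n = 7), and HOXC6 had 10.5 ± 9.47 CPM. The FAP marker list summed to between 51.5 and 854 CPM in macrophages of Muscle and to between 1477 and 2546 CPM in those of P0, and its part in the HOX level was not tested. Against FAPs of P0, 7 of 13 genes were called, all lower (13.4% of all genes called, 7.35% higher and 6.06% lower). HOXA9 (−1.40 ± 0.33), HOXC9 (−1.80 ± 0.43), HOXC6 (−1.10 ± 0.36) and HOXC8 (−1.47 ± 0.50) were among them. HOXD4, HOXA5 and HOXA10 had no UMI in these macrophages, so that FAPs were at least 1.61-fold, 1.45-fold and 1.27-fold higher. DESeq2 did not call HOXC6, HOXC8, HOXD4, HOXA5 or HOXA10 there.

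In FAPs, SCs, VECs and LECs the summed HOX level in CPM was lower at P0 than in Muscle, while the mean number of HOX UMIs per cell was higher or, in LECs, within the spread between animals. These sums are given as a description, with no test. In FAPs the summed level ranged from 309 to 540 CPM in Muscle (median 465 CPM) and from 123 to 149 CPM at P0 (median 128 CPM). The HOX UMIs per cell of FAPs were 2.68 ± 0.266 in Muscle and 3.07 ± 0.216 at P0. In SCs the summed level was 503.9 ± 107 CPM in Muscle and 191 ± 10.5 CPM at P0, and the UMIs per cell were 2.10 ± 0.227 and 3.63 ± 0.449. VECs had 417 ± 72.3 and 197 ± 31.4 CPM, with 1.48 ± 0.325 and 2.83 ± 0.484 UMIs per cell. LECs had 526 ± 142 and 254 ± 24.4 CPM, with 2.79 ± 0.332 and 2.72 ± 0.450 UMIs per cell. SMMCs were lower in CPM at P0 as well, with 271 and 119 CPM over all their cells. Their sums ranged from 153 to 364 CPM in Muscle and from 105 to 157 CPM at P0, with overlap. Macrophages went the other way in CPM, from 17.0 ± 11 to 53.3 ± 23.9 CPM, beside the higher FAP marker level given above. The UMIs of all genes counted per cell were higher at P0, with means of 6274 and 23666 in FAPs, 4334 and 19014 in SCs and 3508 and 14733 in VECs, and the part of depth in the levels was not tested.

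In FAPs, 10 of 12 genes tested were called lower at P0 than in Muscle, where 22.5% of all genes were called lower and 43.4% in either direction. HOXC5 ranged from 9.30 to 18.4 CPM in Muscle (median 14.4 CPM) and from 0.867 to 1.45 CPM at P0 (−3.43 ± 0.18, adjusted p = 6.05e-15). HOXC4 ranged from 17.2 to 54.1 CPM in Muscle (median 31.7 CPM) and from 3.48 to 5.02 CPM at P0 (−2.65 ± 0.17, adjusted p = 6.83e-13). HOXC6 ranged from 68.6 to 141 CPM in Muscle and from 22.5 to 32.5 CPM at P0 (−1.95 ± 0.12, adjusted p = 3e-13). Each of these 3 genes was lower at P0 in 9 of 9 animals, and the ranges did not overlap. The muscle fibre list summed to between 747 and 1307 CPM in FAPs of Muscle and to between 0.431 and 1.45 CPM in those of P0. In SCs it summed to between 289 and 919 CPM in Muscle and to between 0 and 1.69 CPM at P0, and in VECs to between 301 and 1145 CPM and to between 0 and 3.60 CPM. The part of this fibre RNA in the change from Muscle to P0 was not tested in any type.

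HOXA6 (−2.23 ± 0.16), HOXA5 (−2.30 ± 0.18), HOXA7 (−2.27 ± 0.18), HOXA10 (−2.10 ± 0.18) and HOXC9 (−1.71 ± 0.13) were also lower at P0 in FAPs, each in 9 of 9 animals. HOXA9 was lower by less (−1.03 ± 0.14, adjusted p = 2.3e-07), with 68.5 ± 19.6 CPM in Muscle and 30.8 ± 2.18 CPM at P0, and it missed the fold of a call with the animal as a block (−0.91) and with DESeq2 (−0.94). HOXC8, singled out after its values were seen, had 14.3 ± 4.62 CPM in Muscle and 12.3 ± 1.31 CPM at P0 (0.05 ± 0.18, adjusted p = 0.818). In UMIs per cell, HOXC8 had 0.0851 ± 0.0276 in Muscle and 0.292 ± 0.0432 at P0, HOXC6 had 0.62 ± 0.122 and 0.584 ± 0.0652, and HOXC5 had 102 UMIs in 1231 cells and 157 UMIs in 5756 cells.

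In SCs, 4 of 5 genes tested were called lower at P0 (18.5% of all genes called lower, 34.3% in either direction). HOXA9 ranged from 102 to 205 CPM in Muscle and from 42.2 to 61.6 CPM at P0, without overlap (−1.46 ± 0.11, adjusted p = 2.28e-11). HOXA6 (−1.65 ± 0.22), HOXA5 (−1.63 ± 0.28) and HOXC9 (−1.24 ± 0.19) overlapped between the times. HOXC6 had 53.2 ± 20.9 CPM in Muscle and 28.4 ± 3.34 CPM at P0 (−0.89 ± 0.17, adjusted p = 4.46e-05). The scaling of DESeq2 placed the median change of all genes 0.25 higher than that of edgeR in this comparison.

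The change from Muscle to P0 was tested against itself in FAPs and SCs with an interaction term, which called 3 of 13 genes (20% of all genes called, 12.4% with the lower value in FAPs). The fall was larger in FAPs for HOXC6 (−1.27 ± 0.20, adjusted p = 1.35e-06), HOXC4 (−2.15 ± 0.45, adjusted p = 0.000129) and HOXA10 (−1.11 ± 0.27, adjusted p = 0.000992). HOXC4 and HOXA10 were not tested in SCs alone because of low counts. In SCs, HOXC4 had 4.13 ± 3.70 CPM in Muscle (10 UMIs) and 2.29 ± 0.663 CPM at P0, and HOXA10 had 23.7 ± 11.3 CPM (65 UMIs) and 10.3 ± 1.98 CPM. The FAP marker list moved in opposite directions between these times, from a mean of 35567 to 5482 CPM in FAPs and from 1056 to 2552 CPM in SCs, and its part in the interaction was not tested. In VECs, 4 of 6 genes were called, all lower at P0 (19.6% of all genes called lower). They were HOXB2 (−2.36 ± 0.20), HOXB4 (−1.69 ± 0.20), HOXA6 (−1.94 ± 0.24) and HOXA5 (−1.08 ± 0.15), the last of which missed the fold of a call with DESeq2 (−0.99). HOXB9, not tested here, had 5.73 ± 5.35 CPM in VECs of Muscle and 15.4 ± 2.61 CPM at P0. In SMMCs, HOXC6 was the 1 gene tested and was lower at P0 (−1.18 ± 0.23, adjusted p = 7.28e-05, 21.3% of all genes called lower).

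HOXC6 and HOXC5 of FAPs rose from P0 to P2. The comparisons used the 6 animals with unsorted or FAP-sorted cultures for FAPs and the 6 with unsorted or SC-sorted cultures for SCs. From P0 to P2 in FAPs, 3 of 17 genes were called, 2 higher and 1 lower (23.3% of all genes called, 13.6% higher and 9.79% lower). HOXC6 (1.21 ± 0.13, adjusted p = 1.81e-06) and HOXC5 (1.53 ± 0.22, adjusted p = 2.97e-05) rose in 6 of 6 animals, and HOXA4 fell (−1.06 ± 0.35, adjusted p = 0.0149). HOXC8 differed by 0.81 ± 0.09 (adjusted p = 2.43e-06), less than the fold of a call. Over all animals, marker lists moved in FAPs between the same times. The FAP list summed to between 4510 and 8011 CPM at P0 and to between 6450 and 38758 CPM at P2. The smooth muscle list went from between 36.1 and 75.3 CPM to between 251 and 1104 CPM, and the tenocyte list from between 5.52 and 9.67 CPM to between 21.3 and 267 CPM. Their part in these changes was not tested.

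From P2 to P5 in FAPs, 0 of 18 genes were called in the edgeR fit (3.34% of all genes called), although HOXC8 (0.63 ± 0.09, adjusted p = 0.00213), HOXC4 (0.74 ± 0.16, adjusted p = 0.00914) and HOXC6 (0.61 ± 0.15, adjusted p = 0.0174) were each higher in 6 of 6 animals. All 18 log2 fold changes lay above 0, with a median of 0.383 against 0.0118 over all genes tested. From P5 to P8, 0 of 17 were called (2.02% of all genes called), with HOXC8 lower in 6 of 6 animals (−0.64 ± 0.12, adjusted p = 0.00703). There, 5 of 17 lay above 0, with a median of −0.204 against −0.00514 over all genes tested. These directions were not tested as a set. DESeq2 called none from P2 to P5 and 1 from P5 to P8. With the animal as a block, HOXB7 was called from P2 to P5 (1.07, adjusted p = 0.0246), and HOXB7 (1.26, adjusted p = 0.00644) and HOXB4 (1.27, adjusted p = 0.0202) were called from P5 to P8.

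In SCs, HOXA11 was the 1 gene of 13 called from P0 to P2 (8.73% of all genes called, 5.49% higher). It had 1.78 ± 0.957 CPM at P0 and 6.30 ± 2.13 CPM at P2 over all 9 animals, and in the 6 animals compared it was higher at P2 in each, without overlap (2.02 ± 0.36, adjusted p = 0.00118). It had no UMI in SCs of Muscle, and FAPs of P2 had 7.61 ± 2.63 CPM. The FAP marker list in SCs moved with it, from between 1842 and 2918 CPM at P0 to between 3289 and 10790 CPM at P2. Other lists rose in SCs as well. The smooth muscle list went from between 23.2 and 108 CPM to between 270 and 1235 CPM. The tenocyte list went from between 2.17 and 11.8 CPM to between 36.9 and 206 CPM, and the muscle fibre list from between 0 and 1.69 CPM to between 17.6 and 1827 CPM. The part of these lists was not tested. From P2 to P5, 0 of 17 genes were called in SCs (0.195% of all genes called).

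**Figure D4:**
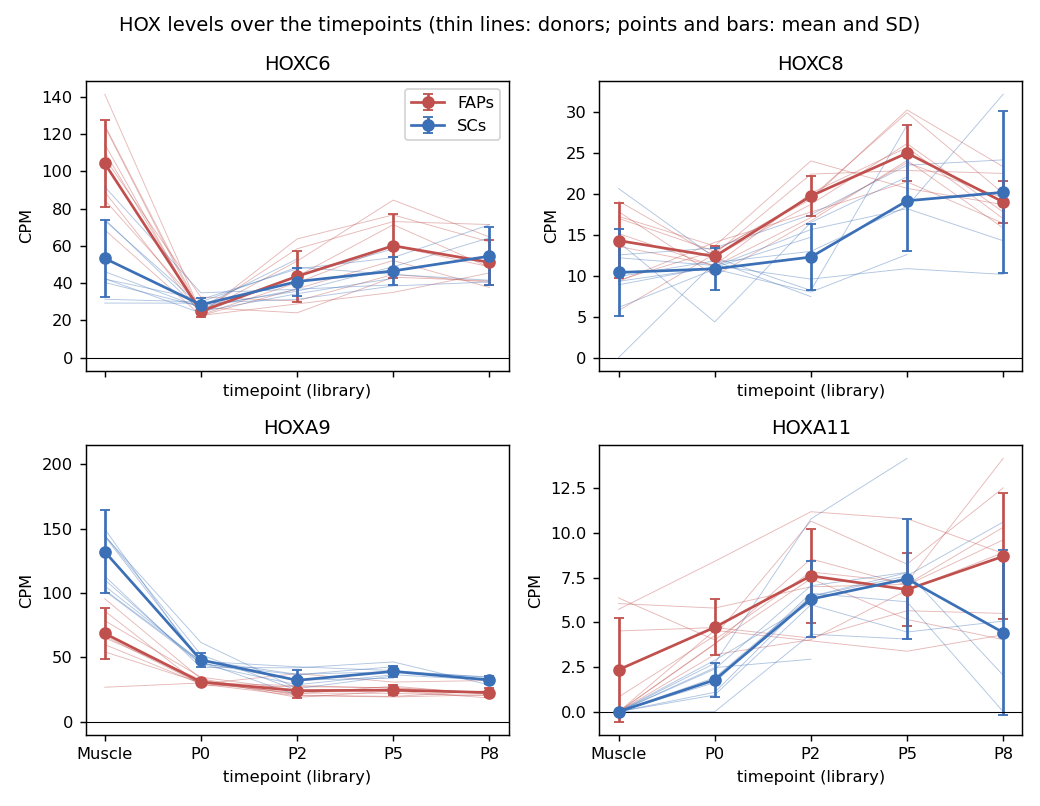
Levels (CPM) of HOXC6, HOXC8, HOXA9 and HOXA11 in FAPs and SCs across Muscle, P0, P2, P5 and P8. Thin lines join the values of 1 animal, and points with bars are mean ± SD over animals, including animal 3, which was in Muscle alone. HOXC6 dropped from 104 ± 23.5 CPM to 24.8 ± 3.16 CPM in FAPs and was at 60.03 ± 17.3 CPM at P5, and HOXA11 in SCs went from 0 to 6.30 ± 2.13 CPM at P2.

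FAPs that were found in SC-sorted cultures were compared with FAPs of FAP-sorted cultures, 3 animals against 3. At P5 the SC-sorted animals 5, 6 and 10 gave 593, 31 and 70 FAPs. The FAP-sorted animals 4, 7 and 8 gave 1345, 1172 and 1437 FAPs. At P5, 2 of 18 genes were called (15.9% of all genes called, 7.99% higher and 7.9% lower). HOXC6 was at 35.0, 43.1 and 44.6 CPM in the SC-sorted cultures and at 71.3, 76.6 and 84.5 CPM in the FAP-sorted ones (−1.06 ± 0.13, adjusted p = 0.00031). The groups did not overlap, and without animal 6 or animal 7 the value was −0.99, just under the fold of a call. Each animal had 1 kind of culture, and vessels were coated with laminin for SC-sorted and with collagen I for FAP-sorted cells, so that sorting, coating and animal cannot be told apart here. In FAPs of P5 over all animals, the SC marker list summed to between 9.57 and 41.8 CPM. The part of SC RNA in these differences was not tested. At P8, 0 of 14 genes were called (1.75% of all genes called).

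HOXB7 was the other gene called at P5, and its call was lost without animal 5. Its level was 10.1, 3.21 and 1.13 CPM in FAPs of the SC-sorted cultures, with the highest value in animal 5, and 0.372, 0.660 and 0.842 CPM in the FAP-sorted ones (3.21 ± 0.57, adjusted p = 0.00291). The groups did not overlap, but the lowest SC-sorted value was 1 UMI, in the sum of 885831 UMIs of animal 6. Without animal 5, with 2 animals against 3, the log2 fold change was 1.75 and the adjusted p was 0.103. In that fit HOXC9, which was not called with all animals, was called (−1.02, adjusted p = 0.00522). Animal 5 had 8.00 CPM of HOXB7 at P2 on 5 UMIs, 6.70 CPM at P8, and 1.76 and 1.10 CPM in Muscle and at P0. At P8, FAPs of the unsorted animals 1 and 9 had 16.8 CPM (150 UMIs) and 11.2 CPM (39 UMIs), above the 1.10 to 3.11 CPM of the animals other than 1, 5 and 9.

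**Figure D5:**
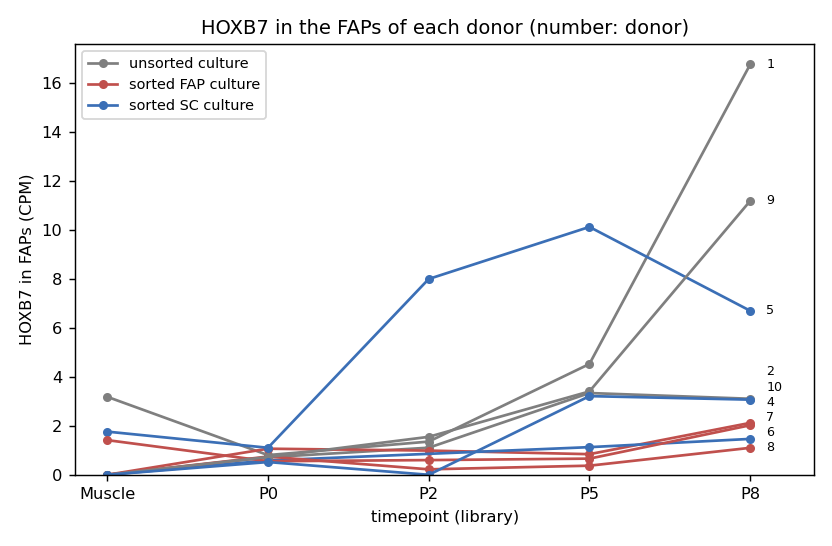
Level of HOXB7 (CPM) in FAPs of each animal across the libraries, coloured by kind of culture. Animal 5 (SC-sorted) stood out at 10.1 CPM at P5, and animals 1 and 9 (unsorted) at 16.8 and 11.2 CPM at P8.

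Calves and adults were compared to ask whether HOX levels differ with age, with 5 calves and up to 5 adults. In FAPs of Muscle 0 of 10 genes, in FAPs of P0 0 of 19 and in SCs of P0 0 of 13 were called, where 1.32%, 0% and 0% of all genes were called. At an unadjusted p below 0.05, 1063 of 6158 genes (17.3%) passed in FAPs of Muscle, 575 of 11466 (5.01%) in FAPs of P0 and 1018 of 9908 (10.3%) in SCs of P0. Of the HOX genes, HOXA10 and HOXC6 were among those that passed in FAPs of Muscle, and none passed at P0. HOXA10 had 17.5 ± 2.87 CPM in calves and 12.5 ± 3.61 CPM in adults (0.69 ± 0.28, adjusted p = 0.207), and HOXC6 had 114 ± 21.2 and 94.8 ± 23.8 CPM (0.39 ± 0.18, adjusted p = 0.288), with overlapping ranges for both. DESeq2 with the same thresholds called 0 HOX genes in each of the 3 comparisons.

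The genes that act with the HOX proteins or set their activity were followed in 5 lists of 77 genes. Of the 9 PBX, MEIS and PKNOX cofactors, 7 were tested between SCs and FAPs at P0, and 2 were higher and 1 lower in SCs. MEIS3 had 32.9 ± 8.38 CPM in SCs and 10.2 ± 1.81 CPM in FAPs (1.67 ± 0.15, adjusted p = 1.18e-08), and MEIS1 was higher as well (1.14 ± 0.18). MEIS2, a marker of the near end of the limb bud, had 1.14 ± 0.609 CPM in SCs and 14.6 ± 1.66 CPM in FAPs (−3.54 ± 0.17, adjusted p = 9.76e-13). No cofactor passed the count filter between SCs and FAPs in Muscle. From Muscle to P0 in FAPs, 2 of 5 tested were lower, MEIS1 (−2.24 ± 0.23) and MEIS2 (−1.0 ± 0.16), and in SCs 0 of 1 was called.

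Of the 24 limb and regional identity factors, 1 was higher and 5 were lower in SCs than in FAPs of Muscle, of 6 tested. The mesenchymal and limb factors PRRX2 (−4.50 ± 0.32), EMX2 (−4.69 ± 0.33), TWIST1 (−4.50 ± 0.32) and SHOX2 (−4.03 ± 0.39) were lower in SCs in 10 of 10 animals. At P0, 5 were higher and 10 lower in SCs, of 18 tested, with TWIST1 (−3.43 ± 0.18), EMX2 (−3.24 ± 0.24) and TBX2 (−2.51 ± 0.22) among those lower. Of those higher, GREM1, an inhibitor of BMP signals in the limb bud, had 16.7 ± 12.1 CPM in SCs and 1.10 ± 0.694 CPM in FAPs (4.07 ± 0.42), and EN1 had 3.54 ± 1.75 and 0.737 ± 0.403 CPM (2.35 ± 0.35). Both were named after their values were seen.

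From Muscle to P0, 2 of 13 regional factors tested were higher and 4 lower in FAPs. PRRX1, a limb mesenchyme factor, had 90.8 ± 22.2 CPM in Muscle and 280 ± 37.9 CPM at P0 (1.69 ± 0.13), while SHOX2 (−1.64 ± 0.15), TWIST1 (−1.26 ± 0.12) and EYA1 (−1.17 ± 0.19) were among those lower. In SCs, 1 was higher and 3 were lower at P0, of 4 tested, with PRRX1 higher (2.71 ± 0.28) and EYA1 among those lower (−1.41 ± 0.21). PRRX1 in SCs moved along with the FAP marker list, which rose from between 426 and 1951 CPM in Muscle to between 1842 and 2918 CPM at P0, and whether FAP RNA had a part in it was not tested.

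Of the 18 Polycomb genes, 15 were tested between Muscle and P0 in FAPs, and 2 were higher and 6 lower at P0. EZH2, the catalytic subunit of dividing cells, had 6.63 ± 2.24 CPM in Muscle and 47.0 ± 7.96 CPM at P0 (2.95 ± 0.16), and SUZ12 of the same complex was higher too (1.21 ± 0.09). EZH1, the subunit of resting cells, had 37.4 ± 10.8 CPM in Muscle and 3.62 ± 0.374 CPM at P0 (−3.15 ± 0.15), and CBX7 (−3.96 ± 0.16) and CBX6 (−3.10 ± 0.20) were lower.

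In SCs, 0 of 8 Polycomb genes tested were higher and 3 lower at P0, namely CBX7 (−3.39 ± 0.31), RYBP (−1.51 ± 0.13) and BMI1 (−1.18 ± 0.20). Between SCs and FAPs, 1 of 8 was called in Muscle, EZH1 (−1.04 ± 0.28), and 1 of 18 at P0, CBX7 (1.28 ± 0.24).

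Of the 13 Trithorax genes and H3K27 demethylases, 1 was higher and 3 lower at P0 in FAPs, of 13 tested. KDM6A (−2.25 ± 0.13) and KDM6B (−1.56 ± 0.11), which remove the Polycomb mark, and KMT2C (−1.51 ± 0.10) were lower, and WDR5 was higher (1.27 ± 0.10). In SCs, 0 of 8 were higher and 5 lower, namely KDM6B (−2.94 ± 0.20), KDM6A (−2.12 ± 0.23), KMT2C (−1.45 ± 0.16), ASH1L (−1.25 ± 0.11) and KMT2A (−1.13 ± 0.15). Between SCs and FAPs, 0 of 8 were called in Muscle and 0 of 13 at P0.

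Of the 13 retinoic acid receptors and enzymes, ALDH1A2, which makes retinoic acid, was the 1 called of 2 tested between SCs and FAPs in Muscle, with 1.09 ± 2.06 CPM in SCs and 99.9 ± 31.9 CPM in FAPs (−6.33 ± 0.40, adjusted p = 2.2e-13). At P0 it had 0.535 ± 0.687 CPM in SCs and 3.36 ± 1.16 CPM in FAPs (−3.29 ± 0.42). ALDH1A3 (−3.78 ± 0.36), CYP26B1, which breaks retinoic acid down (−3.06 ± 0.41), and CRABP2 (−2.13 ± 0.26) were lower in SCs at P0, and the receptor RARG was higher (1.46 ± 0.09), which made 1 higher and 4 lower of 9 tested.

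From Muscle to P0 in FAPs, 3 of 9 tested were lower and none higher, namely ALDH1A2 (−4.83 ± 0.23), ALDH1A1 (−2.57 ± 0.31) and ALDH1A3 (−1.51 ± 0.23). In SCs, ALDH1A1 was the 1 of 2 called (−3.03 ± 0.32). These lists were read by their counts beside the shares of all genes called, and no list was tested as a set. Between SCs and FAPs of P0, the cofactors, regional factors and retinoic acid genes were called more often than all genes (10.7%). Polycomb and Trithorax genes were called less often there. In Muscle, the regional factors and the retinoic acid genes (1 of 2 tested) were also above the share of all genes (19.9%). From Muscle to P0 the share of all genes was 43.4% in FAPs, where the regional factors and Polycomb genes were above it. In SCs it was 34.3%, and all lists but the cofactors were above it, with few genes tested in each. A gene could pass the count filter through the group where it is high, so that nothing is concluded about a list.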

How the data were processed

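The deposited files hold raw UMI counts per gene and barcode, which the authors made with Cell Ranger 6.0.1 (per the labels) on genome build ARS-UCD1.2, with 1 matrix per time. Kept cells, donor assignment (demuxlet) and cell types were taken from the authors' cell table, of which 11 columns were not used. All cells of that table are classed as singlets by genotype, and no other doublet caller was run. Counts were summed per donor, cell type and library (at least 10 cells) in Python 3.11.15. Sums were compared in edgeR 4.0.16 (R 4.3.3) with TMM factors, filterByExpr and the robust quasi-likelihood F test, without a donor term, over all genes, with Benjamini-Hochberg adjustment. The standard error is the absolute log2 fold change divided by the square root of F. Calls asked for an adjusted p under 0.05 together with a log2 fold change over 1 in size. In all, 28 comparisons were made, and each p measures the spread between donors. The steps were tested on simulated data.

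Named were the called HOX genes of each comparison, at most 8 in each direction by adjusted p, and, in each cluster, the 2 genes highest in FAPs of Muscle and P0 (HOXA9, HOXA6, HOXB2, HOXB3, HOXC6, HOXC9, HOXD4 and HOXD8). For the other 5 lists, at most 5 called genes per list and comparison were named, between SCs and FAPs of Muscle and P0 and between Muscle and P0. The values of some genes that this rule would name are not reported here. The HOX genes as a subject and all lists were chosen with earlier results of these data known. Alternatives were DESeq2 1.42.0, no count filter, at least 30 cells, thinning to the smallest sum, the donor as a block, a covariate for sex where ages were compared, leaving out donors where a group had 2 to 5, and, for levels, cells of at least 2000 UMIs or the mean over cells of the share of UMIs. Cell types of 1 donor came from the same animal and so were paired: the correlation of the deviations of SCs and FAPs from their group means lay between 0.0140 and 0.300 in Muscle and between 0.201 and 0.450 at P0. Limits for a count of 0 use 3 UMIs and, with the counting intervals, cover counting error only. No coordinates or sequences are given, since the reference gene table is of a different build. The label of P0 names SCs, FAPs and unsorted cells, while the methods name unsorted cells.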

Additional observations from a re-analysis of the deposited data

Results flagged for a closer look

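Of 105 groups of 4 to 10 donors, 14 held a donor far from the others. A rate of about 1 in 20 by chance would hold for independent groups of equally deep sums. These groups shared donors and differed in depth, so that 14 cannot be set against that rate. Donor 5 was high in FAPs of P0 for the summed HOX level (149 CPM, next 130 CPM), HOXA6 (6.97 CPM), HOXB3 (0.697 CPM) and HOXC6 (32.5 CPM), and for HOXB3 in FAPs of P5 (0.556 CPM). Donor 10 was high for HOXA9 in FAPs of P2 (37.3 CPM, in a sum of 12 cells) and of P8 (32.0 CPM). In FAPs of P5, donor 6 was high for HOXA6 (9.03 CPM) and low for HOXD4 (1.13 CPM) and HOXD8 (0 CPM). That sum held 31 cells and 885831 UMIs, so that these values rest on few UMIs. Both donors had SC-sorted cultures, and the part of SC RNA in these FAPs was not tested. HOXA9 was high in SCs of Muscle in donor 3 (205 CPM) and in SCs of P0 in donor 4 (61.6 CPM), HOXC9 in LECs of P0 in donor 9 (68.7 CPM), and HOXB2 in SCs of P5 in donor 4 (35.5 CPM). The last rested on 5 UMIs among 141002.

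The change from Muscle to P0 differed between FAPs and SCs by the interaction test for HOXC6 (−1.27), HOXC4 (−2.15) and HOXA10 (−1.11), each a larger fall in FAPs on the log2 scale. These were 3 of 13 HOX genes tested, where 20% of all genes were called, so that the count marks nothing particular to HOX genes. HOXC4 and HOXA10 were not tested in SCs alone, where HOXC4 had 10 UMIs in Muscle. The FAP marker list in SCs went from between 426 and 1951 CPM in Muscle to between 1842 and 2918 CPM at P0, and its part in the interaction was not tested.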

How the results depend on the processing

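No call of a HOX gene changed direction in an alternative run that gave it a value. The direction of HOX genes that were not called, and of the genes of the other lists, was not compared. Of the levels, 0 of 19 moved under either level alternative. A call is counted here once per HOX gene and comparison, so that a gene can count more than once. Of these calls, 97 of 105 were kept with DESeq2, 99 of 105 without the count filter and 80 of 80 at 30 cells. With the donor as a block 91 of 93 were kept and, of the few still tested, 10 of 10 when thinned. When 1 donor was left out, 48 of 56 gene-by-donor fits kept the call. Numbers of called HOX genes that moved by over 1.5 times are given below, and their cause was not tested beyond the number of genes tested.

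With DESeq2, which tested between 26 and 35 HOX genes in the comparisons with a moved count, the number against FAPs in Muscle was 5 for SCs, 18 for VECs, 8 for SMMCs, 14 for macrophages, 12 for lymphocytes and 8 for LECs, at P0 25 for VECs and 19 for LECs, and at P5 13 for SCs. From Muscle to P0 it was 17 in FAPs, 18 in SCs, 9 in VECs and 8 in SMMCs, from P5 to P8 in FAPs 1, and from P0 to P2 in SCs 2. The scaling of DESeq2 moved the median of all genes by over 0.1 (log2) in lymphocytes against FAPs (−0.22), in macrophages against FAPs at P0 (0.17) and from Muscle to P0 in SCs (0.25), SMMCs (0.12) and VECs (0.11).

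Without the count filter the number in Muscle was 8 for SCs, 21 for VECs, 9 for SMMCs, 21 for macrophages, 15 for lymphocytes and 12 for LECs. It was 24 for VECs at P0, 16 for SCs at P2, 16 for SCs at P5, and from Muscle to P0 17 in FAPs, 18 in SCs, 11 in VECs and 7 in SMMCs. At 30 cells, which left fewer donors, it was 3 for SMMCs and 7 for macrophages in Muscle, 22 for VECs at P0 and 2 for SMMCs from Muscle to P0.

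Thinned to the smallest sum, far fewer HOX genes were tested (at most 7 where the count moved), and the number was 0 for SCs, macrophages, lymphocytes and LECs and 2 for VECs in Muscle, 1 for SCs and 0 for VECs, SMMCs, macrophages and LECs at P0, 0 for SCs at P2 and at P5, 3 in FAPs, 0 in SCs, 1 in VECs and 0 in SMMCs from Muscle to P0, 0 for the interaction, 0 from P0 to P2 in SCs and 1 for FAPs of sorted cultures at P5.

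With the donor as a block, the paired fit moved the number for LECs in Muscle from 5 to 1, that from P2 to P5 in FAPs from 0 to 1 and that from P5 to P8 from 0 to 2, and moved no other count by as much. Leaving out 1 donor gave 3 to 5 for LECs in Muscle and 1 to 2 for FAPs of sorted cultures at P5. Low counts limited the tests within fresh muscle, where at most 10 HOX genes passed the filter.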
